A study of Mus musculus with 27 samples.

Results

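The interferon (IFN)-inducible GTPases described here are *Gbp2*, *Gbp3*, *Gbp7*, *Igtp*, *Irgm1*, *Irgm2*, *Iigp1*, *Ifi47* and *Tgtp1*. They were chosen by name, as 9 of the 22326 genes with a value in every library. The data are RNA-seq of *Setdb1* cKO iMEFs, which are immortalized mouse embryonic fibroblasts derived as 1 reclone, and every group, controls included, carries the conditional *Setdb1* allele. Adding 4-hydroxytamoxifen (4OHT) triggers deletion of *Setdb1*, which encodes an enzyme that methylates lysine 9 of histone H3. What drives the recombinase is not given in the sources used here. Nothing in the labels says that replicates were separate cultures, so each p-value measures only the spread between libraries, which may be technical.

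In the total RNA experiment, 3 libraries each were made from untreated cells, from cells given 4OHT for 4 days and harvested on day 5 (4OHT day 5), and from cells kept after 4OHT for more than 2 weeks by the labels, or more than 1 week by the study's methods (long-term KO). In the siRNA experiment, 2 libraries each were made on day 6 from cells given a control siRNA (siCtrl), siRNA to the maintenance DNA methyltransferase gene *Dnmt1* (siDnmt1), 4OHT + siCtrl and 4OHT + siDnmt1. In the inhibitor experiment, 2 libraries each were made from untreated cells and from cells given trichostatin A (TSA). TSA, a histone deacetylase inhibitor, was given at 150 nM for 24 h. Likewise, 2 libraries each came from cells given 1 µM of the MEK inhibitor PD0325901 for 24 h and from cells given 4OHT + PD0325901. A further 2 came from cells harvested on day 6 after the start of 4OHT (4OHT day 6). The unit is FPKM, fragments per kilobase of transcript per mega (M) of mapped fragments. Only groups within an experiment were compared.

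These proteins belong to the cell-autonomous defence against microbes that live inside vacuoles. Guanylate-binding proteins (*Gbp2*, *Gbp3*, *Gbp7*) and effector immunity-related GTPases (*Iigp1*, *Ifi47*, *Tgtp1*) are loaded onto such vacuoles, whereas *Irgm1*, *Irgm2* and *Igtp* encode regulatory immunity-related GTPases that sit on the cell's own membranes and hold the effectors in check. Their genes are classical targets of interferon: type I interferon acts through the factor ISGF3 on interferon-stimulated response elements (ISREs), and IFN-γ acts on gamma-activated sites (GASs).

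The stretches upstream of the genes are shown because most hold letters of these elements. A RefSeq promoter table (GRCm38.p6) held a window for 8 of the 9 genes, and these windows were placed on mm9 by exact match. An ISRE was searched as GAAA, any 2 bases and GAAA on both strands, and a GAS as TTC, any 3 bases and GAA, which matches itself on the other strand, in the 250 bases before each start. Matches are counted per gene, whereas the shares are per window: the 8 genes have 9 windows, and the second window of *Gbp3* held neither match. At least 1 ISRE match lay upstream of 7 of the 8 genes, against 2.98% of all 32851 windows. A GAS match lay upstream of 4, against 7.02% of windows. The same 4 genes held both, against 0.332% of windows. The stretches with matches are printed 5′ to 3′ on the strand of the gene, with the matches in capitals, and an ISRE on the opposite strand appears as TTTC, any 2 bases and TTTC. Where a window runs into an annotated exon, only 30 bases are given.
Gbp7, chr3:142193180-142193299, plus strand: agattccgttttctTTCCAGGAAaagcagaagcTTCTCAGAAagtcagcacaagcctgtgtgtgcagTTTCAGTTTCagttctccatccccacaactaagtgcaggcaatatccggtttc
Gbp3, chr3:142222888-142223007, plus strand: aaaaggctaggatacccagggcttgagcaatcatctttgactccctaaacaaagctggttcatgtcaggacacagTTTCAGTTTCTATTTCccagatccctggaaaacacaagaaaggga
Gbp2, chr3:142283558-142283587, plus strand: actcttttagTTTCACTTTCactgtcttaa
Irgm1, chr11:48684930-48684959, minus strand: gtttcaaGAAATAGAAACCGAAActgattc
Tgtp1, chr11:48805812-48805841, minus strand: gccatTTCCAGGAAtcGAAACTGAAAccta
Igtp, chr11:58012938-58013057, plus strand: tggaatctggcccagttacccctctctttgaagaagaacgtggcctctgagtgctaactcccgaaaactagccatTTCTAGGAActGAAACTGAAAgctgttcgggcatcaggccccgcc
Irgm2, chr11:58028359-58028478, plus strand: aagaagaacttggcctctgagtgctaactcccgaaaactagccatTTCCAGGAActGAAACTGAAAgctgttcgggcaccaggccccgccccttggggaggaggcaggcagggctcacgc

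In *Tgtp1*, *Igtp* and *Irgm2*, the GAS match began 11 bases before the ISRE match. *Gbp7* held 2 GAS matches, which began 53 and 34 bases before its ISRE match. In *Irgm1* and *Gbp3*, 2 ISRE matches overlapped. *Ifi47* held neither set of letters in its window, which says nothing of sites elsewhere. *Iigp1* was not searched. A match of letters is a description, and binding was not measured here.

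**Figure D1:**
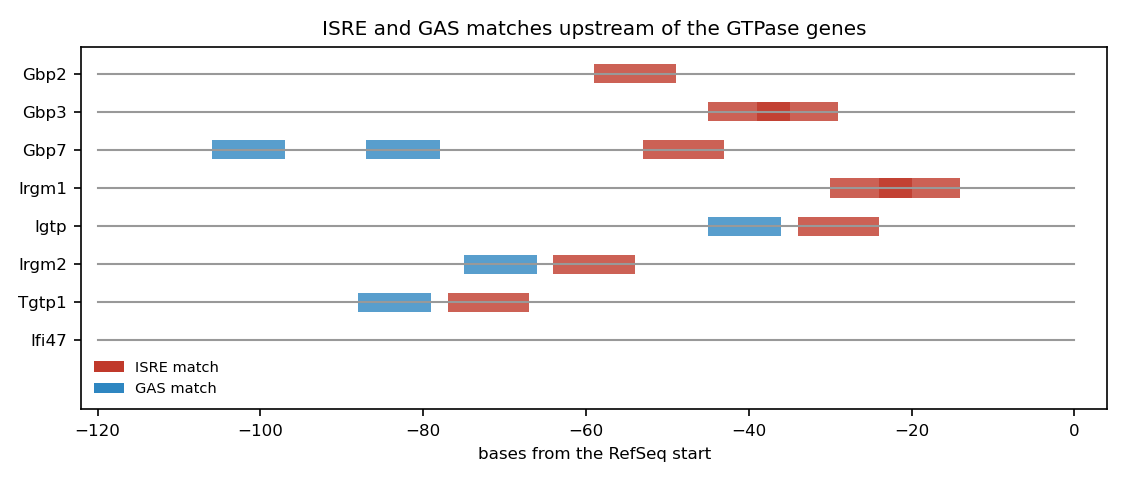
Position of ISRE (red) and GAS (blue) letter matches upstream of 8 GTPase genes, in bases from the RefSeq start of each gene. 7 genes hold an ISRE match, 4 of them also hold a GAS match, and *Ifi47* holds neither.

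In mm9, the genes lie in 4 places. *Gbp7* (chr3:142193302-142213047), *Gbp3* (chr3:142223016-142236173) and *Gbp2* (chr3:142283566-142300972) are neighbours on chromosome 3. *Irgm1* (chr11:48675470-48685185), *Tgtp1* (chr11:48798829-48807674) and *Ifi47* (chr11:48890089-48910476) lie near each other on chromosome 11, and *Igtp* (chr11:58013058-58021093) and *Irgm2* (chr11:58028530-58036282) lie farther along it. *Iigp1* (chr18:60535683-60552281) lies apart from the rest. Because Cufflinks assembled each library on its own, 1 deposited value can span neighbours. The 9 genes were therefore measured as 7 loci: *Irgm1*, *Igtp*/*Irgm2* (with *Gm12250* in the siRNA and inhibitor experiments), *Gbp3*/*Gbp7*, *Gbp2* (with *Gbp2b*), *Ifi47* (with *Olfr56*), *Iigp1* (with 2 similar GTPase genes in the siRNA experiment) and *Tgtp1* (with *Tgtp2*, *Psme2b* and neighbouring GTPase genes). Values of similar copies such as *Tgtp1* and *Tgtp2*, or *Gbp2* and *Gbp2b*, are uncertain even where each has its own row, as reads with several hits were kept at 1 position. Genes in 1 locus share 1 value and 1 test.

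The deposited intervals implied 37.1 to 42.5 M fragments per library in the total RNA experiment, 13.7 to 15.5 M in the siRNA experiment and 10.9 to 12.6 M in the inhibitor experiment. Of the fibroblast markers, *Vim*, the intermediate filament of mesenchymal cells, was at 468 FPKM or above in every library, whereas others were lower after 4OHT: 3 of 9 tested were called lower at 4OHT day 5, 6 of 10 at day 6, and 6 of 10 in 4OHT + siCtrl against siCtrl, where 1.27%, 6.10% and 3.36% of all loci were. Their part in the GTPase levels was not tested. The leukocyte gene *Ptprc* did not exceed 0.131 FPKM and the T cell gene *Cd3e* was listed at 0 in all 27 libraries. The leukocyte marker list as a whole was not silent. In the siRNA experiment it summed to 3.92 to 4.76 FPKM with siCtrl and 6.553 to 6.895 FPKM with siDnmt1. The sum was 4.898 to 11.25 FPKM with 4OHT + siCtrl and 11.04 to 11.58 FPKM with 4OHT + siDnmt1. Sums for 4OHT day 5 and TSA are given below. The part of this list in the GTPase levels was not tested. *Dnmt1* was between 73.4 and 80.5 FPKM without its siRNA and between 10.6 and 12.2 FPKM with it. *Setdb1* measured over its whole length was between 5.16 and 5.95 FPKM in untreated cells, 4.16 and 6.52 FPKM at 4OHT day 5 and 6.96 and 7.32 FPKM in long-term KO, and between 5.00 and 7.58 FPKM over all siRNA libraries. In the inhibitor experiment *Setdb1* was at 8.76 and 10.1 FPKM in untreated cells and 5.34 and 5.56 FPKM with PD0325901, and was listed at 0 in 4OHT day 6 replicate 1 and in both 4OHT + PD0325901 libraries but at 5.30 FPKM in 4OHT day 6 replicate 2. A value over the whole gene does not check the deletion, and a value of 0 can be a failed estimate. In these bulk samples, fewer cells that express a gene and less RNA per cell cannot be told apart.

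The library labelled 4OHT + siCtrl replicate 2 stood apart from its pair. Its GTPase loci were between 0.596 and 1.13 times the siCtrl mean, whereas those of replicate 1 were between 5.16 and 37.7 times those of replicate 2. *Usp18*, a negative regulator of the type I interferon receptor, was at 4.10 FPKM in it and 136 FPKM in replicate 1. Other genes did not all follow one group: *Postn*, a matricellular protein gene, was at 3.22 FPKM in it and 10.5 FPKM in replicate 1, against a siCtrl mean of 99.6 FPKM, but the keratin gene *Krt8* was at 6.97 FPKM in it, 0.215 FPKM in replicate 1 and 0.0572 FPKM in siCtrl. The median absolute log2 difference of this pair over all tested loci was 0.318, against 0.0875 to 0.185 in the other pairs of the siRNA experiment. Results that rest on it are given with and without it. The cells labelled 4OHT day 6 also differed, with replicate 2 between 1.69 and 7.23 times replicate 1 over the 7 loci. In the file of the library labelled PD0325901 replicate 2, a title line names the combined treatment while the description names PD0325901 alone; the label was followed.

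**Figure D2:**
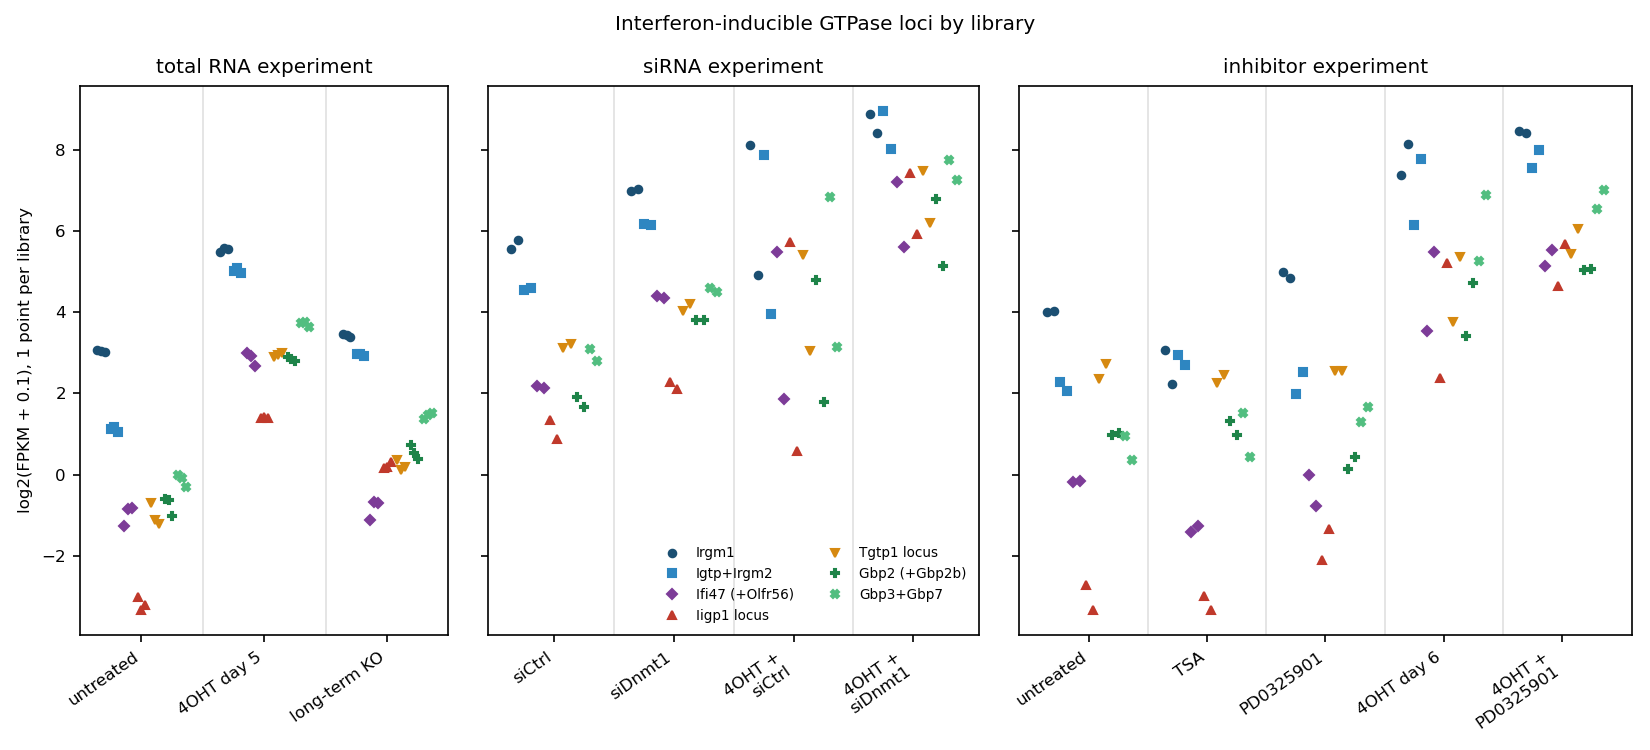
Levels of the 7 GTPase loci in all 27 libraries as log2(FPKM + 0.1), with 1 point per library, by group and experiment. In the total RNA experiment the 3 libraries of a group lie close together, and in the siRNA experiment the 4OHT + siCtrl libraries lie far apart.

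All 9 GTPases were higher at 4OHT day 5 than in untreated cells, and all were lower again in long-term KO. *Irgm1*, the most abundant of the 7 loci here, was at 8.25, 8.12 and 8.04 FPKM in untreated cells, 44.8, 47.4 and 47.0 FPKM at 4OHT day 5, and 10.9, 10.7 and 10.3 FPKM in long-term KO. The other regulators, *Igtp* and *Irgm2*, shared a locus, at 2.09, 2.14 and 1.99 FPKM in untreated cells, 32.0, 33.8 and 30.9 FPKM at day 5, and 7.69, 7.79 and 7.48 FPKM in long-term KO. In both loci the 3 groups did not overlap, and long-term KO lay between the other two. Here and below, the share of all loci whose groups separate is not given. Differences were common: of 9940 loci, 4536 had an unadjusted p under 0.05 by limma at day 5 against untreated. In long-term KO against untreated, 6931 did.

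Among the effectors, *Iigp1* was nearly absent from untreated cells, at 0.0247, 0 and 0.00875 FPKM. It reached 2.52, 2.59 and 2.55 FPKM at day 5 and stayed at 1.02, 1.04 and 1.14 FPKM in long-term KO. *Ifi47*, by contrast, was back near its untreated level in the late group. Its levels were 0.315, 0.457 and 0.467 FPKM in untreated cells, 7.93, 7.46 and 6.26 FPKM at day 5, and 0.364, 0.530 and 0.514 FPKM in long-term KO, where the range overlapped that of untreated cells. The *Tgtp1* locus was at 0.519, 0.359 and 0.332 FPKM in untreated cells, 7.40, 7.55 and 7.88 FPKM at day 5, and 1.19, 0.991 and 1.05 FPKM in long-term KO. Most of this level belonged to other genes of the locus. The row of *Tgtp1* alone was also near 0 in untreated cells, at 0.0215, 0.0403 and 0.0183 FPKM. Where separate at day 5 it was at 2.69 and 2.52 FPKM, and in long-term KO at 0.248, 0.257 and 0.254 FPKM. For *Tgtp1*, unlike *Ifi47*, the long-term KO libraries were all above the untreated ones.

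The guanylate-binding proteins moved alike. *Gbp3*/*Gbp7* was at 0.891, 0.842 and 0.708 FPKM in untreated cells, 13.2, 13.5 and 12.3 FPKM at day 5, and 2.51, 2.66 and 2.75 FPKM in long-term KO. *Gbp2* was at 0.559, 0.552 and 0.395 FPKM, 7.35, 7.05 and 6.82 FPKM, and 1.56, 1.35 and 1.22 FPKM in the same order. No library of one group reached the range of another in either locus, and the share of all loci that do so is not given. Where *Gbp3* and *Gbp7* had values of their own, *Gbp3* was at 0.810, 0.762 and 0.628 FPKM and *Gbp7* at 0.0816, 0.0793 and 0.0802 FPKM in untreated cells. In long-term KO, *Gbp3* was at 1.78, 1.98 and 2.02 FPKM and *Gbp7* at 0.724, 0.677 and 0.731 FPKM, so that both genes were above their untreated range.

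At 4OHT day 5 against untreated, all 9 GTPases (7 of 7 loci) were called higher (adjusted p under 0.05, and 2-fold or more), where 2.09% of the 9940 loci tested were. Only *Irgm1* and *Igtp*/*Irgm2* reached the 1 FPKM needed for testing in untreated cells. The other loci passed this filter through day 5 or long-term KO libraries, and *Ifi47* through day 5 libraries alone. Their tests therefore partly rest on the filter. The log2 fold change was 4.58 for *Iigp1* (standard error 0.12), 3.90 for *Igtp*/*Irgm2* (0.05), 3.85 for *Gbp3*/*Gbp7* (0.08), 3.84 for *Ifi47* (0.18) and 3.59 for *Gbp2* (0.13). It was 3.96 (0.14) for the *Tgtp1* locus and smallest for *Irgm1* at 2.50 (0.03), the locus with the highest untreated level. Adjusted p-values from limma lay between 3.24e-09 and 3.06e-06. The median over the 7 loci was 3.85, against 0.00 over all loci tested. The summed leukocyte markers were at 1.14 to 1.44 FPKM in untreated cells and 0.968 to 1.39 FPKM at day 5, and the 4 epithelial markers summed to 1.22 to 1.56 FPKM and 4.19 to 5.27 FPKM. Of the fibroblast markers 3 of 9 were called lower, *Postn* at -3.17 the furthest. The part of these lists was not tested. Fold changes are on the log2(FPKM + 0.1) scale, which understates the change of low genes such as *Iigp1*.

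In long-term KO against untreated, 7 of the 9 GTPases (5 of 7 loci) were called higher, where 7.46% of loci were. The log2 fold change was 3.40 for *Iigp1*, 1.84 for *Igtp*/*Irgm2*, 1.59 for *Gbp3*/*Gbp7*, 1.30 for *Gbp2* and 1.24 for the *Tgtp1* locus. *Irgm1* differed by 0.38, short of a 2-fold change although its libraries did not overlap (adjusted p = 2.96e-05). *Ifi47* differed by 0.15 (standard error 0.18, adjusted p = 0.472), which was within the spread between libraries. Against 4OHT day 5, all 9 GTPases were called lower in long-term KO, where 5.86% of loci were, from -3.69 in *Ifi47* to -1.19 in *Iigp1*.

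**Figure D3:**
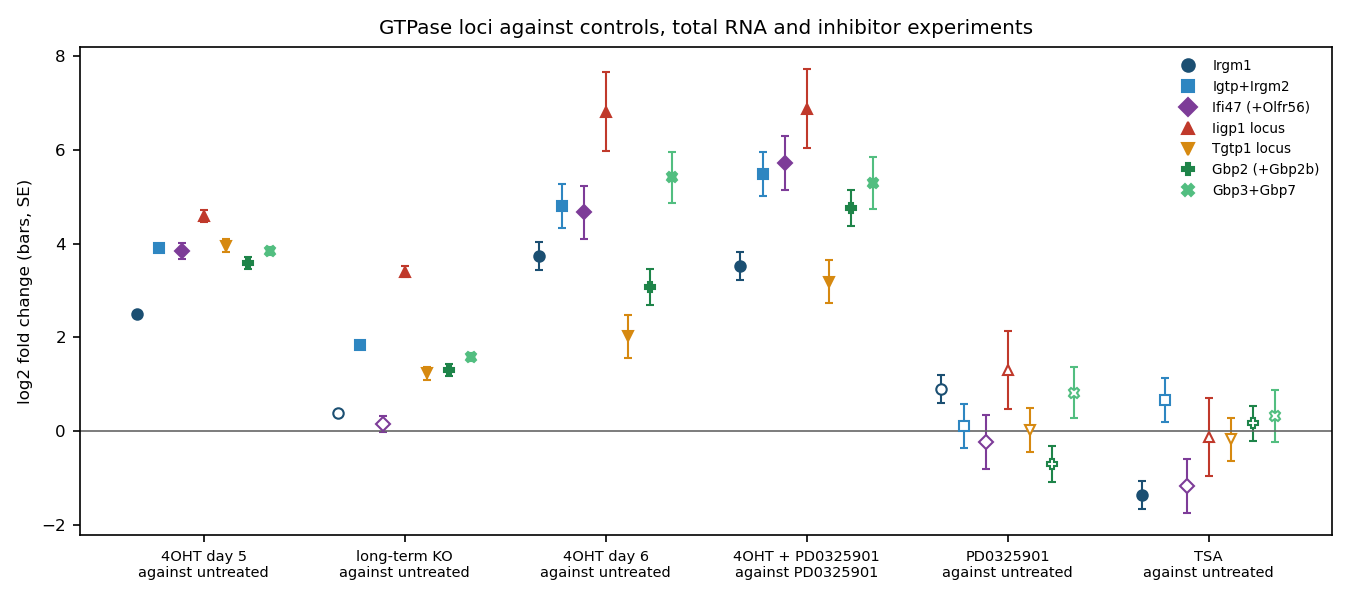
Log2 fold changes of the 7 GTPase loci against their controls in the total RNA and inhibitor experiments, with bars for the standard error and filled points for called loci. At 4OHT day 5 and day 6 all 7 points are filled, whereas in long-term KO *Irgm1* and *Ifi47* are open.

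The share of the day 5 rise that was still present in long-term KO differed between the genes. It was computed for each long-term KO library as its level above the untreated mean, as a percentage of the day 5 mean above the untreated mean. *Iigp1* kept 41.6% ± 2.53 (SD, n = 3), *Igtp*/*Irgm2* 18.5% ± 0.523, *Gbp3*/*Gbp7* 15.0% ± 1.02 and *Gbp2* 13.4% ± 2.64. The *Tgtp1* locus kept 9.31% ± 1.39, *Irgm1* 6.53% ± 0.704 and *Ifi47* 0.830% ± 1.35. *Iigp1* and *Igtp*/*Irgm2* stood above all other loci in every library. The ranges of *Gbp3*/*Gbp7* (13.9 to 15.9%) and *Gbp2* (10.9 to 16.2%) overlapped, so that the order of these neighbours is not set by these libraries. The SD leaves out the spread of the untreated and day 5 means.

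**Figure D4:**
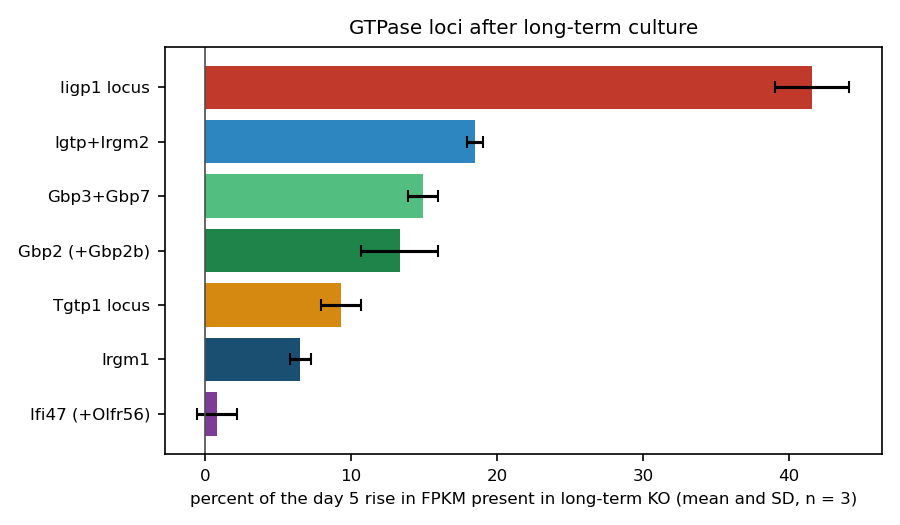
Percentage of the day 5 rise above untreated that was present in long-term KO, for the 7 GTPase loci, with bars for the mean of 3 libraries and lines for the SD. *Iigp1* lies near 41.6% and *Ifi47* near 0.830%, with the other loci between them.

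In the siRNA experiment, the question was whether loss of *Dnmt1* adds to loss of *Setdb1*. With siDnmt1 alone, all 7 loci had positive log2 fold changes against siCtrl, where 39.5% of all loci did, and none was called with all libraries. In 4OHT + siCtrl replicate 1 the 7 loci were higher still. *Irgm1* was at 46.6 and 55.0 FPKM with siCtrl, 126 and 131 FPKM with siDnmt1, 277 and 30.2 FPKM with 4OHT + siCtrl, and 466 and 342 FPKM with 4OHT + siDnmt1. *Igtp*/*Irgm2* was at 23.3 and 24.1 FPKM, 71.6 and 70.1 FPKM, 234 and 15.3 FPKM, and 494 and 257 FPKM in the same order. In both loci, 4OHT + siCtrl replicate 2 was below every siCtrl library and the 4OHT + siDnmt1 libraries were above all others.

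The effectors followed the same course. *Ifi47* was at 4.41 and 4.27 FPKM with siCtrl, 20.8 and 20.4 FPKM with siDnmt1, 44.6 and 3.52 FPKM with 4OHT + siCtrl, and 148 and 48.3 FPKM with 4OHT + siDnmt1. The *Iigp1* locus was at 2.46 and 1.73 FPKM, 4.76 and 4.23 FPKM, 52.7 and 1.40 FPKM, and 172 and 60.3 FPKM. *Ifi47* thus had the larger ratio of siDnmt1 to siCtrl means, 4.76, against 2.14 for *Iigp1*. The *Tgtp1* locus was at 8.62 and 9.26 FPKM, 16.2 and 18.4 FPKM, 42.3 and 8.19 FPKM, and 178 and 73.4 FPKM. Here 4OHT + siDnmt1 replicate 1 was 2.43 times replicate 2, a wider gap than in siCtrl or siDnmt1 cells.

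*Gbp2* was at 3.68 and 3.05 FPKM with siCtrl, 13.9 and 13.9 FPKM with siDnmt1, 27.4 and 3.38 FPKM with 4OHT + siCtrl, and 110 and 35.0 FPKM with 4OHT + siDnmt1. *Gbp3*/*Gbp7* was at 8.51 and 6.89 FPKM, 24.2 and 22.4 FPKM, 113 and 8.74 FPKM, and 212 and 151 FPKM. In 4OHT + siCtrl replicate 2, *Gbp2* lay within its siCtrl range and *Gbp3*/*Gbp7* just above it.

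With all 8 libraries, no GTPase was called in any siRNA comparison, where 2.33% (siDnmt1 against siCtrl), 2.61% (4OHT + siCtrl against siCtrl), 1.01% (4OHT + siDnmt1 against 4OHT + siCtrl) and 3.38% (4OHT + siDnmt1 against siDnmt1) of loci were called higher. In the same order, 2.38%, 3.36%, 0.410% and 2.21% of loci were called lower. At an unadjusted p under 0.05 by limma, 0, 0, 3 and 4 of the 9 passed. Of all 11225 loci tested, 2894, 3660, 2173 and 3834 did. *Ifi47* had a log2 fold change of 2.22 with siDnmt1, with a standard error of 1.13, and the wide 4OHT + siCtrl pair shares that estimate of the spread.

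Without 4OHT + siCtrl replicate 2, a choice made after the data had been seen, siDnmt1 against siCtrl called 7 of the 9 GTPases (5 of 7 loci) higher, where 4.20% of 11179 loci were. The log2 fold change was 2.22 for *Ifi47* (standard error 0.50, adjusted p = 0.0333), 2.02 for *Gbp2* (0.52, 0.0467), 1.59 for *Gbp3*/*Gbp7* (0.19, 0.00675), 1.58 for *Igtp*/*Irgm2* (0.29, 0.0207) and 1.35 for *Irgm1* (0.16, 0.00718). The *Iigp1* and *Tgtp1* loci differed by 1.08 and 0.94 and were not called. The epithelial marker list (*Krt8*, *Krt18*, *Epcam* and *Cdh1*) moved with siDnmt1: its summed level was at 0.677 to 0.986 FPKM with siCtrl and 55.4 to 55.8 FPKM with siDnmt1. Its part in the GTPase levels was not tested.

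Under the same choice, 4OHT + siCtrl replicate 1 against siCtrl called all 9 higher, where 5.40% of loci were, from 2.23 at the *Tgtp1* locus to 4.61 at the *Iigp1* locus. That single library was assumed to vary like the other groups. Most of the siCtrl level of the *Tgtp1* locus belonged to *Psme2b* and neighbours, at 6.57 and 7.13 FPKM, while the row of *Tgtp1* and *Tgtp2* alone was at 1.72 and 1.75 FPKM with siCtrl and 23.7 FPKM in that library. In 4OHT + siDnmt1 against siDnmt1, all 9 were called higher, where 6.03% were, from 1.63 in *Irgm1* to 4.47 at the *Iigp1* locus. Between 4OHT + siDnmt1 and 4OHT + siCtrl, none was called, where 2.00% of loci were called higher and 0.939% lower. The log2 fold changes were 0.53 (*Irgm1*) to 1.43 (*Tgtp1* locus). Without replicate 1 instead, 4OHT + siCtrl against siCtrl ranged from -0.74 to 0.19 with none called, where 5.15% of loci were called higher and 5.18% lower. 4OHT + siDnmt1 against 4OHT + siCtrl then called all 9, where 5.60% were called higher, from 3.72 to 6.09. With 1 library on either side, the 2 sets of values cannot be told apart.

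Whether the effect of 4OHT differed with siDnmt1 was tested as an interaction. With all 8 libraries none of the 9 was called, where 0.116% of loci were called higher and 0.0802% lower. None had an unadjusted p under 0.05 by limma, where 1113 of all 11225 loci did. The values were between 0.51 for *Ifi47* and 2.44 for *Iigp1*. Without 4OHT + siCtrl replicate 2 none was called either (0.456% of loci higher, 0.367% lower). There, 6 of 7 loci turned negative, down to -1.30 for *Ifi47* (standard error 0.79), so that the direction rests on that library. Without replicate 1 instead, 6 of the 9 were called higher, where 3.09% of loci were.

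**Figure D5:**
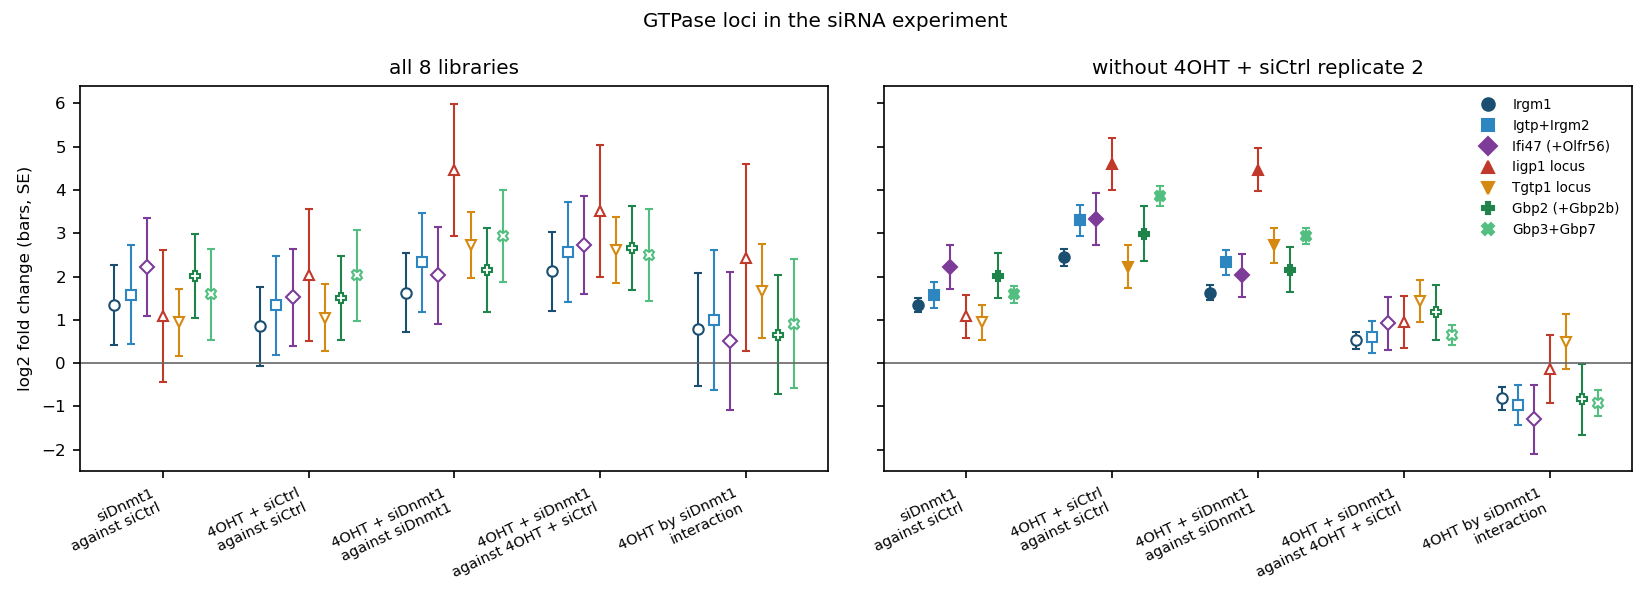
Log2 fold changes of the 7 GTPase loci in the siRNA experiment with all 8 libraries and without 4OHT + siCtrl replicate 2, with bars for the standard error and filled points for called loci. No point is filled with all libraries, and 5 points are filled for siDnmt1 against siCtrl without that library.

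In the inhibitor experiment, all 9 GTPases were again higher on day 6 after the start of 4OHT, with or without the MEK inhibitor. With an inhibitor alone, *Irgm1* with TSA was the single call. *Irgm1* was at 16.0 and 16.2 FPKM in untreated cells, 8.23 and 4.60 FPKM with TSA, 31.8 and 28.3 FPKM with PD0325901, 167 and 282 FPKM at 4OHT day 6, and 350 and 342 FPKM with 4OHT + PD0325901. The TSA libraries lay below and the PD0325901 libraries above the untreated ones, and the libraries with 4OHT were highest. *Igtp*/*Irgm2* was at 4.73 and 4.04 FPKM, 7.64 and 6.38 FPKM, 3.89 and 5.72 FPKM, 70.7 and 218 FPKM, and 186 and 252 FPKM in the same order.

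*Iigp1* was at 0.0517 and 0 FPKM in untreated cells, 0.0265 and 0 FPKM with TSA, 0.133 and 0.297 FPKM with PD0325901, 5.08 and 36.8 FPKM at 4OHT day 6, and 24.9 and 51.2 FPKM with 4OHT + PD0325901. *Ifi47* was at 0.791 and 0.804 FPKM, 0.275 and 0.321 FPKM, 0.895 and 0.486 FPKM, 11.5 and 44.6 FPKM, and 34.9 and 46.2 FPKM. For both effectors the ranges of 4OHT day 6 and 4OHT + PD0325901 overlapped, and within each replicate number the latter was higher. The *Tgtp1* locus was at 5.02 and 6.46 FPKM, 4.64 and 5.41 FPKM, 5.77 and 5.78 FPKM, 13.4 and 40.8 FPKM, and 43.1 and 65.9 FPKM. Most of its untreated level belonged to rows of *Psme2b* and neighbouring genes. The row of *Tgtp1* and *Tgtp2* alone was at 0.130 and 0.265 FPKM in untreated cells, and where it was separate after 4OHT it reached 5.21 FPKM at day 6 and 27.5 FPKM with 4OHT + PD0325901.

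*Gbp2* was at 1.86 and 1.93 FPKM in untreated cells, 2.42 and 1.86 FPKM with TSA, 1.01 and 1.25 FPKM with PD0325901, 10.6 and 26.0 FPKM at 4OHT day 6, and 32.8 and 33.3 FPKM with 4OHT + PD0325901. *Gbp3*/*Gbp7* was at 1.85 and 1.19 FPKM, 2.79 and 1.26 FPKM, 2.34 and 3.10 FPKM, 38.5 and 117 FPKM, and 93.3 and 128 FPKM. *Gbp2* with PD0325901 alone was below the untreated libraries, and *Gbp3*/*Gbp7* above them.

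At 4OHT day 6 against untreated, all 9 GTPases were called higher, where 5.05% of the 11903 loci tested were. *Iigp1* and *Ifi47* reached the 1 FPKM needed for testing only in libraries with 4OHT, so their tests partly rest on the filter. The log2 fold change was 6.81 for *Iigp1* (standard error 0.84), 5.41 for *Gbp3*/*Gbp7* (0.55), 4.79 for *Igtp*/*Irgm2* (0.47), 4.66 for *Ifi47* (0.57), 3.74 for *Irgm1* (0.30), 3.07 for *Gbp2* (0.38) and 2.02 for the *Tgtp1* locus (0.46). Adjusted p-values from limma lay between 0.000385 and 0.0187. The fibroblast markers moved the other way, with 6 of 10 called lower and a median log2 fold change of -1.11, and the 1 endothelial marker tested was called higher at 2.34. Their part was not tested. On the row of *Tgtp1* and *Tgtp2* alone, the log2 fold change was 4.20. It rests on 4OHT day 6 replicate 1 (5.21 FPKM), as replicate 2 had no such row. With 4OHT + PD0325901 against PD0325901, all 9 were called higher, where 3.34% were, from 3.19 at the *Tgtp1* locus to 6.88 in *Iigp1*.

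None of the 9 was called with 4OHT + PD0325901 against 4OHT day 6, where 2.29% of loci were called higher and 1.37% lower. All 7 loci had positive values, from 0.67 in *Irgm1* to 1.37 in *Iigp1*, where 54.4% of all loci did. At an unadjusted p under 0.05 by limma, 2 of the 9 passed, *Gbp2* and *Tgtp1*. Of all 11903 loci, 2651 did, and 2 of 9 is near that share. Libraries of the same replicate number deviated together in the PD0325901, 4OHT day 6 and 4OHT + PD0325901 groups. Within numbers, all 14 differences over the 7 loci were higher with 4OHT + PD0325901. The matching share over all loci is not given here, and the 7 loci share the same libraries. A fit of these 3 groups with the replicate block, added after the data had been seen, also called none of the 9, where 2.23% of loci were called higher and 1.09% lower. Adjusted p-values by limma were between 0.141 at the *Tgtp1* locus and 0.445 at *Ifi47*. The values turned on which 4OHT day 6 library was used. Without replicate 2, 5 GTPases were called higher (*Gbp2*, *Igtp*, *Irgm2*, *Iigp1* and *Tgtp1*), where 1.97% of loci were, and without replicate 1 the values lay between -0.15 and 0.39 with none called. The interaction of 4OHT and PD0325901 called none, where 0.445% of loci were called higher and 0.193% lower, with the largest value at *Gbp2* (1.69, standard error 0.53, adjusted p = 0.200). *Gbp2* alone had an unadjusted p under 0.05 by limma, where 1871 of all 11903 loci did.

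PD0325901 alone called none of the 9, where 2.99% of loci were called higher and 4.11% lower. By limma only *Irgm1* had an unadjusted p under 0.05, at 0.89 (standard error 0.30, adjusted p = 0.0939), where 3440 of all 11903 loci did. TSA called 1 of the 9 lower, where 12.7% of loci were called lower and 19.0% higher, so that 1 of 9 is near the share over all loci. *Irgm1* fell by 1.37 on the log2 scale (standard error 0.30, adjusted p = 0.00565 by limma). Without TSA replicate 2 its difference was -0.96, short of a 2-fold change. *Ifi47* was below its untreated libraries with TSA as well, at -1.17 (standard error 0.57, adjusted p = 0.116). The summed leukocyte markers, nearly all *Cd68*, were at 62.2 to 68.1 FPKM with TSA and 5.60 to 6.06 FPKM in untreated cells. The summed epithelial markers were at 31.3 to 32.4 FPKM with TSA and 1.28 to 1.39 FPKM in untreated cells. The part of either list was not tested.

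The other genes of the interferon pathway were taken from lists of its ligands and receptors, its transcription factors and inhibitors, and other GTPases. Among ligands and receptors (16 genes), none of the 7 loci tested was called at 4OHT day 5. At day 6, 1 of 10 was called higher, *Ifnb1*, the gene of interferon beta. Over all loci 2.09% and 5.05% were called higher and 1.27% and 6.10% lower, so both counts are near the share over all loci. *Ifnb1* was listed at 0 in both untreated libraries and at 1.01 and 2.03 FPKM at 4OHT day 6. In the siRNA experiment it reached 26.2 and 8.54 FPKM with 4OHT + siDnmt1, the group in which the GTPases were highest. *Ifng*, the gene of IFN-γ, did not exceed 0.0738 FPKM in any library. The receptor genes of IFN-γ were present throughout, and *Ifngr1* differed by 0.00 at day 5.

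Among transcription factors and inhibitors (15 genes), 5 of 11 loci were called higher at day 5 and none lower, and 8 of 14 higher and 1 lower at day 6, where 2.09% and 5.05% of all loci were called higher and 1.27% and 6.10% lower. *Irf7*, which drives type I interferon genes, had log2 fold changes of 4.96 at day 5 and 6.79 at day 6. *Usp18* had 4.83 and 8.29. *Irf9*, the DNA-binding subunit of ISGF3, had 2.16 at day 5, where it shared a locus with *Rnf31*. *Irf1*, an interferon-induced transcription factor, had 0.88 at day 5 and was not called. *Irf5* was listed at 0 in both untreated libraries of the inhibitor experiment and averaged 16.0 FPKM at 4OHT day 6. *Socs3*, an inhibitor of cytokine signalling, was the 1 called lower at day 6, at -1.69, and 1 of 14 is near the share over all loci.

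Of 19 other GTPase genes, 15 lay outside the loci already described. Of these, only 4 loci at day 5 and 10 at day 6 reached the level needed for testing. All 4 were called higher at day 5 and 9 of 10 at day 6, where 2.09% and 5.05% of all loci were. A locus low in untreated cells can pass the filter through its 4OHT libraries alone, so the filter partly sets these counts. *Mx2* and *Mx1*, dynamin-like antiviral GTPases, had log2 fold changes of 4.76 and 4.47 at day 5 and 7.83 and 6.03 at day 6. *Gvin1*, a very large inducible GTPase gene, had 4.72 at day 6. *Tgtp2* shared the locus of *Tgtp1*. In long-term KO the same 4 loci were called higher against untreated, where 7.46% of all loci were. The locus of *Gbp4*, *Gbp9* and *Gbp11* was at 2.95, *Mx1* at 2.15, *Mx2* at 1.73 and *Gbp6* at 1.67. Against 4OHT day 5, 3 of the 4 were called lower, where 5.86% of all loci were. The *Gbp4* locus differed by -0.31 (standard error 0.25, adjusted p = 0.305 by limma). Of 15 genes for vacuole targeting and autophagy, the machinery that these GTPases work with, none was called at 4OHT day 5 or day 6. Over all loci 2.09% and 5.05% were called higher, and 0 of 15 is near that background.

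*Mx2*, *Gbp6*, *Ifit2* and *Ifit3* were among the genes with the pattern most like that of the 9 GTPases. Likeness was the lowest, over the 3 experiments, of the Pearson correlations across libraries between log2(FPKM + 0.1) of a gene and the mean of the 9 GTPases, among 10763 genes. It was 0.986 for *Mx2*, 0.983 for *Gbp6*, and 0.978 for *Ifit2* and *Ifit3*, which share a locus with *Ifit3b*. These correlations rest on 9, 8 and 10 libraries that fall into groups, and are given as a description.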

How the data were processed

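RNA-seq libraries of *Setdb1* cKO iMEFs were used, 27 in 3 experiments. Reads had been mapped to mm9 with TopHat2 (2.0.12 in the submitters' processing notes) and each library assembled with Cufflinks by the authors, who deposited FPKM per locus, without counts. Reads with several hits were kept at 1 position. Loci of the total RNA libraries, which carry no gene names, were matched by position, a locus covering 95% of a gene, and loci joined in any library of an experiment were summed. Loci that reached 1 FPKM in 3 (total RNA) or 2 (siRNA, inhibitor) libraries were tested on log2(FPKM + 0.1) with limma 3.58.1 in R 4.3.3, with trended variances and all groups of an experiment in the fit. Tests were two-sided with Benjamini-Hochberg adjustment, and loci were called at an adjusted p under 0.05 and at least 2-fold. On simulated data, 186, 160 and 156 of 200 changed loci were recovered in the total RNA, siRNA and inhibitor experiments, with 1, 6 and 5 false calls. Python 3.11.15 with pandas 2.3.3 and matplotlib 3.10.9 did the rest. Promoters came from RefSeq. The genes named are the 9 GTPases, set genes of the pathway lists with the 3 largest called changes of each list, and the 5 genes most alike. For 1 gene of these lists, results are not reported. Members and lists were chosen with earlier results of these data known. The authors' comparison columns were not used here.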

Additional observations from a re-analysis of the deposited data

How the results depend on the processing

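Over all alternatives run, 7 to 9 GTPases were called higher at 4OHT day 5, 7 to 9 at 4OHT day 6, 7 to 9 with 4OHT + PD0325901 against PD0325901 and 5 to 8 in long-term KO against untreated, and 7 to 9 were called lower in long-term KO against 4OHT day 5. None of the values called with all libraries changed sign. Uncalled values did, as given for the siRNA and PD0325901 comparisons with 1 library left out. The other comparisons moved more. With only the groups compared in the fit, siDnmt1 against siCtrl called 8 and 4OHT + siDnmt1 against siDnmt1 called 7, in place of 0. The share of all loci called is not given for this or the other alternative fits of this section. It can move with the fit, so these counts are not set against a background. With rows that join genes left out, siDnmt1 against siCtrl called 1, *Igtp*, which had its own row in 6 of 8 libraries. In the 4OHT groups, only 4OHT + siCtrl replicate 2 (9.57 FPKM), the library that stood apart, and 4OHT + siDnmt1 replicate 2 (160 FPKM) had this row. On these single libraries rest its log2 fold changes of 1.92 against siDnmt1, 4.05 against 4OHT + siCtrl and 2.56 in the interaction of 4OHT and siDnmt1. PD0325901 against untreated called 1, *Tgtp1* with *Tgtp2* (log2 fold change 1.76, adjusted p = 0.0399 by limma). That row was low, at 0.130 and 0.265 FPKM in untreated cells and 0.939 and 0.830 FPKM with PD0325901. It reached the 1 FPKM needed for testing only in libraries with 4OHT, so its test partly rests on the filter. Leaving out 1 library gave 0 to 7 for siDnmt1 against siCtrl, 0 to 9 for 4OHT + siDnmt1 against siDnmt1, 0 to 9 for 4OHT + siCtrl against siCtrl, 0 to 9 for 4OHT + siDnmt1 against 4OHT + siCtrl, 0 to 6 for their interaction, 0 to 5 for 4OHT + PD0325901 against 4OHT day 6 and 0 to 1 for the interaction of 4OHT and PD0325901. TSA called 2 lower under quantile normalization, and 0 to 1 with 1 library left out. Leaving out joined rows, and leaving out 4OHT + siCtrl replicate 2 in comparisons without that group, were chosen after the data had been seen. A fit with the replicate block gave 9 at day 5, 7 in long-term KO and 9 at day 6, and changed no call. The deviations of same-numbered libraries correlated over 0.1 in 1 of 9, 0 of 12 and 6 of 20 pairs of the total RNA, siRNA and inhibitor experiments, and the 6 are all the pairs among PD0325901, 4OHT day 6 and 4OHT + PD0325901 (0.207 to 0.266). The replicate block within these 3 groups left the calls at 0 against 4OHT day 6 and 9 against PD0325901. Median-ratio scaling moved the median of all loci from 0.14 to 0.00 in 4OHT + siDnmt1 against siDnmt1. The cause of these changes was not tested. Groups of 2 libraries leave 1 library to decide a group mean.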
